A study of Mus musculus with 12 samples.

Results

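The transcripts of 10 genes that the transcription factor p53 activates were measured in the cerebellum of mice treated with the compound Hit 2. The genes are Cdkn1a, Mdm2, Ccng1, Bax, Bbc3, Eda2r, Phlda3, Trp53inp1, Sesn1 and Zmat3, taken as a named set of p53 targets and found by their Ensembl identifiers among the 55401 identifiers counted. All 10 were found, and 9 of them passed the filter on low counts that left 19378 genes for testing. Eda2r did not pass, with 3 to 23 reads per library. None of the 9 passed the test in Hit 2-treated knock-in mice against either control group, where 0% of all genes tested passed against vehicle-treated knock-in mice and 0.00516% against wild-type mice. The largest rise in the group mean, that of Cdkn1a against vehicle-treated knock-in mice, came from 1 of 4 mice.

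The study asked what compounds selective for CAG repeats do in models of spinocerebellar ataxia. RNA of the whole cerebellum was sequenced from 12 mice, 1 library per mouse, in 3 groups of 4. Het-Hit2 mice were heterozygous Atxn1 154Q/2Q knock-in animals, which model spinocerebellar ataxia type 1 (SCA1) because the mouse's own Atxn1 gene carries an expanded CAG tract, and they received Hit 2 at 25 mg/ml in dimethyl sulfoxide (DMSO). The dose per body weight is not given in the sources used here. Het-DMSO mice had the same genotype and received DMSO alone, and Wt-DMSO mice were wild type and received DMSO alone. All 3 groups were injected into the peritoneum every day for 5 days, rested for 2 days and were injected for 5 more days. They were 18 weeks old at the start and 20 weeks old when the tissue was taken under urethane after perfusion with saline. DMSO, kept below 4 ml/kg, was thus common to all groups, no group went without injections, and no wild-type mice received Hit 2. Libraries are named here by animal number.

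p53 is held at a low level in resting cells by the ubiquitin ligase Mdm2 and its partner Mdm4. When DNA is broken, kinases such as Atm release p53 from them, and p53 then binds paired half-sites in DNA and raises the transcription of genes that halt the cell cycle, repair DNA or start apoptosis. In the cerebellum this response is best known from granule cell precursors, which die in a p53-dependent manner after irradiation. The transcripts of its target genes therefore serve as a common readout of DNA damage, a question that arises for compounds directed at a nucleic acid.

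The DNA element of this response is shown because p53 acts on its targets through it. The p53 consensus half-site holds 3 purines, a C, 2 bases that are A or T, a G and 3 pyrimidines. Promoter windows of 300 bases, from 250 before to 50 after the start of transcription, came from RefSeq on GRCm38.p6 and were given for 8 of the 10 genes, all but Trp53inp1 and Zmat3. They were searched on both strands for a pair of adjoining half-sites. The C and G of each half-site had to match, and at most 2 mismatches were allowed at the other bases of the pair. A gene with several starts has several windows, and it was counted once if any of them held the pair. The pair was found for 2 of the 8 genes, Cdkn1a and Ccng1, against 0.392% of all 27025 genes with a window. Among 30 other p53 targets 22 had a window and 2 held the pair, Rps27l and Gtse1. Each of these 4 sites had 1 mismatch. They are printed on the strand of the gene with the paired half-sites in capitals, and the first 3 with 20 bases on each side.
Cdkn1a, chr17:29090928-29090947, plus strand: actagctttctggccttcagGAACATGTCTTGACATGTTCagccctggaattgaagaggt
Ccng1, chr11:40755462-40755481, minus strand: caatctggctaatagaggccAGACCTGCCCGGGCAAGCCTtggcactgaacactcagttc
Rps27l, chr9:66946296-66946315, plus strand: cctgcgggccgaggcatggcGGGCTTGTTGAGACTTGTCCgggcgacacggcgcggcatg
Gtse1, chr15:85859945-85859964, plus strand: GAGCAAGTTGGGGCTTGCCT

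Counted from the start of transcription of the window that held it, the Cdkn1a site began at base -51 and the Ccng1 site at base -195. Cdkn1a had a second window, for a start farther downstream, and that one held neither the pair nor a half-site. A single half-site without mismatch, which the search for pairs can overlap, was present for 5 of the 8 genes (Cdkn1a, Ccng1, Mdm2, Bax and Sesn1) and for 9.55% of all genes with a window. A match describes the letters only. Known p53 sites of several of these genes lie in introns or farther upstream, outside such windows.

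Depth ranged from 15855751 to 45265719 reads assigned to genes per library. Libraries 409 and 411, both Het-DMSO, and library 410, Het-Hit2, stood apart. In library 409 mitochondrial transcripts made up 0.0795% of gene reads, against 1.85% to 2.81% elsewhere. In library 411 the summed level of 10 Purkinje cell markers was 652 CPM (reads scaled to a common library size) and that of 10 granule cell markers 189 CPM. Library 410 had 3387 and 2540 CPM, and the other 10 libraries had 4955 to 8055 and 2962 to 4834 CPM. All 10 markers of each of these neuron types had reads in every library, with the lowest sums in 411. The 10 oligodendrocyte markers summed to 6785 CPM in library 411 and 5630 CPM in 410, against 1313 to 3516 CPM elsewhere, and 8 markers of midbrain monoamine neurons to 176 and 73.7 CPM, against 4.32 to 23.2 CPM. In bulk tissue, fewer cells of a type and less RNA per cell cannot be told apart. Xist, the transcript of the inactive X chromosome, stood at 1393 and 1464 CPM in Wt-DMSO libraries 425 and 426 and at no more than 0.290 CPM elsewhere. Log2 changes against Het-DMSO are therefore also given without libraries 409 and 411 where that turned their sign or moved them by much.

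After Hit 2, 0 of the 9 tested p53 targets passed an adjusted p of 0.05 against Het-DMSO by edgeR, where 0% of all genes did. No member had an unadjusted p under 0.05, against 1.55% of all genes, and no member had groups that did not overlap in CPM, against 1.03%. The count at the adjusted threshold was 0 also by DESeq2 and by limma, for members and for all genes alike. Among the 21 alternative fits, Cdkn1a had an unadjusted p under 0.05 in 4, given here with the number of all genes that had one. These were DESeq2 (0.0466, 442 of 19378 genes) and the fit without the filter (0.0476, 664 of 35878). The others left out library 410 (0.0268, 742 of 19742) or library 422 (0.0230, 214 of 19731). Libraries 410 and 422 had the lowest Cdkn1a levels of the treated mice, at 8.69 and 8.23 CPM. Zmat3, with a negative log2 change, had an unadjusted p under 0.05 in 2 fits. These left out library 420 (0.0265, 1151 of 19895 genes) or library 429 (0.0369, 1201 of 19647). Against Wt-DMSO, again 0 members passed, against 0.00516% of all genes (Myo15 alone, named because it was the one called), 0 had an unadjusted p under 0.05 (1.71% of all genes) and 0 had groups that did not overlap (6.32%). Of the 9 fitted log2 fold changes (log2 changes for short, positive where Het-Hit2 was higher), 6 lay above 0 and 3 below against Het-DMSO, with a median of 0.09 beside -0.04 over all genes. That median was 0.06 beside 0.01 over all genes without libraries 409 and 411, 0.041 without library 430 and 0.16 without library 409. Against Wt-DMSO 5 lay above 0 and 4 below, with a median of 0.01 beside 0.02 over all genes. Both comparisons use the same Het-Hit2 libraries.

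**Figure D1:**
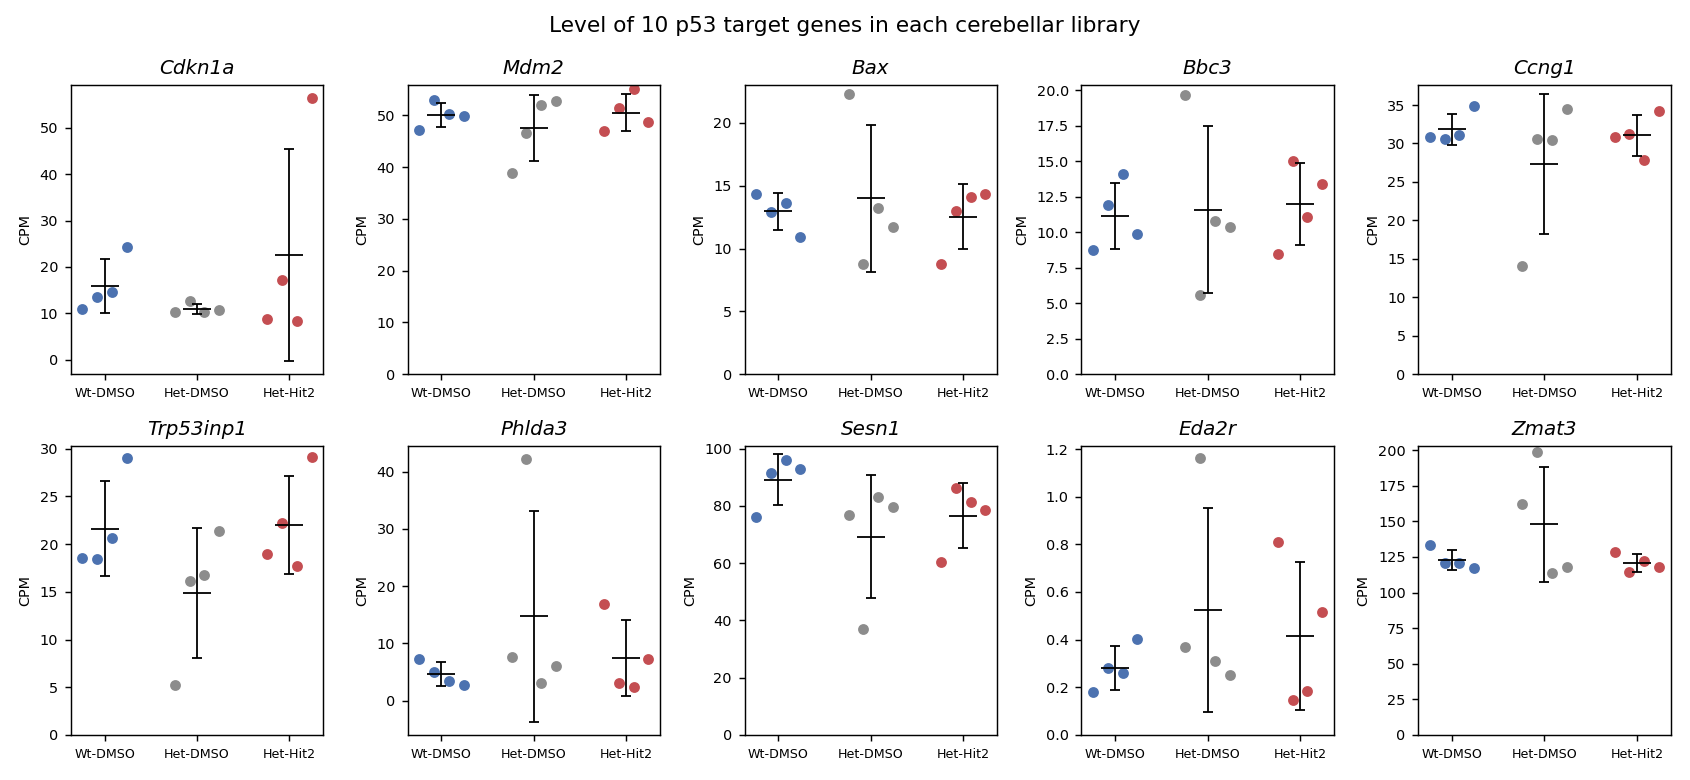
Level of each of the 10 p53 target genes in CPM (vertical axis, linear) by group (horizontal axis); each point is 1 library, and the bar and whiskers are the mean and SD of 4 libraries. The groups overlap in every panel, and single libraries stand out: 430 at 56.4 CPM for Cdkn1a, 411 at 42.2 CPM for Phlda3 and 409 at 5.22 CPM for Trp53inp1.

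Cdkn1a (ENSMUSG00000023067) encodes p21, the inhibitor of cyclin-dependent kinases through which p53 halts the cell cycle. Its level was 8.69 (410), 17.1 (421), 8.23 (422) and 56.4 CPM (430) in Het-Hit2. It was 10.2 (409), 12.6 (411), 10.2 (420) and 10.7 CPM (429) in Het-DMSO, and 10.8 (413), 13.6 (425), 14.6 (426) and 24.3 CPM (431) in Wt-DMSO. In the members that follow, levels are in the same order of libraries within each group. For Cdkn1a 2 Het-Hit2 mice lay above all Het-DMSO mice and 2 below all of them, and the highest level, in library 430, was 2.33 times the next highest, which was that of a vehicle-treated wild-type mouse. That level rested on 1203 reads.

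The fitted log2 change of Cdkn1a against Het-DMSO was 1.05 (SE 0.53, 95% interval -0.11 to 2.21, adjusted p 0.898 by edgeR; permutation p 0.514, exact and two-sided). It was 0.04 (SE 0.32) without library 430 and 1.11 (SE 0.73) without libraries 409 and 411, so that 1 treated mouse set its size. Against Wt-DMSO the log2 change was 0.51 (SE 0.53, adjusted p 1.00 by edgeR; permutation p 0.914, exact and two-sided), and -0.49 without library 430. Neither difference was larger than the spread between mice.

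Mdm2 (ENSMUSG00000020184), the ubiquitin ligase that p53 induces and that in turn marks p53 for destruction, varied least of all members. It stood at 46.9, 51.4, 55.1 and 48.7 CPM in Het-Hit2 libraries 410, 421, 422 and 430. The Het-DMSO libraries 409, 411, 420 and 429 had 38.9, 46.7, 52.0 and 52.7 CPM, and the Wt-DMSO libraries 413, 425, 426 and 431 had 47.3, 53.03, 50.2 and 49.8 CPM. The treated mice thus lay inside or close to the range of both control groups. The log2 change was 0.09 (SE 0.11) against Het-DMSO, with a 95% interval on the fold scale of 0.894 to 1.26, and -0.054 without libraries 409 and 411. It was 0.01 (SE 0.11) against Wt-DMSO, with an interval of 0.849 to 1.20. In library 430, where Cdkn1a was at its highest, Mdm2 was at 48.7 CPM beside a median of 50.02 CPM over the 12 libraries.

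Ccng1 (ENSMUSG00000020326), which encodes cyclin G1, a partner of Mdm2 in the feedback on p53, stood at 30.8, 31.3, 27.8 and 34.2 CPM in Het-Hit2. It had 14.0, 30.6, 30.4 and 34.5 CPM in Het-DMSO and 30.8, 30.5, 31.1 and 34.9 CPM in Wt-DMSO. Library 409 was the only one of the 12 below 27.8 CPM. The log2 change was 0.18 (SE 0.22) against Het-DMSO, -0.07 (SE 0.10) without libraries 409 and 411, and -0.04 (SE 0.22) against Wt-DMSO. Ccng1 and Cdkn1a were the members whose promoter windows held the paired half-sites, and over the 12 libraries the highest level was 2.49 times the lowest for Ccng1 and 6.86 times for Cdkn1a.

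Among the genes of apoptosis, Bax (ENSMUSG00000003873) encodes the protein that opens the outer mitochondrial membrane. Its levels were 8.80, 12.9, 14.1 and 14.4 CPM in Het-Hit2, 22.3, 8.78, 13.2 and 11.7 CPM in Het-DMSO, and 14.3, 12.9, 13.7 and 10.9 CPM in Wt-DMSO. Bbc3 (ENSMUSG00000002083) encodes Puma, a BH3-only protein that sets Bax free. It stood at 8.45, 15.03, 11.1 and 13.4 CPM in Het-Hit2, 19.7, 5.55, 10.8 and 10.3 CPM in Het-DMSO, and 8.78, 11.9, 14.1 and 9.85 CPM in Wt-DMSO. For both genes library 409 was the highest and library 411 the lowest of all 12, both in the same vehicle group, and library 410 was the next lowest.

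Bax had a log2 change of -0.16 (SE 0.26) against Het-DMSO and -0.04 (SE 0.26) against Wt-DMSO. That of Bbc3 was 0.05 (SE 0.33) and 0.10 (SE 0.33). Without libraries 409 and 411 the values against Het-DMSO became 0.01 (SE 0.19) for Bax and 0.18 (SE 0.24) for Bbc3. The differences stayed within the spread between mice.

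Eda2r (ENSMUSG00000034457), a receptor of the tumour necrosis factor family, was close to the detection limit in this tissue. It stood at 0.811, 0.148, 0.184 and 0.516 CPM in Het-Hit2, 0.370, 1.16, 0.311 and 0.250 CPM in Het-DMSO, and 0.178, 0.283, 0.262 and 0.403 CPM in Wt-DMSO. The highest levels were those of libraries 411 and 410, and they rested on 23 and 14 reads. The exact two-sided permutation p was 0.657 against Het-DMSO and 0.629 against Wt-DMSO. At these counts no fold change is given.

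Phlda3 (ENSMUSG00000041801), which restrains the kinase Akt, was the member that differed most between mice. Its levels were 16.9, 3.16, 2.48 and 7.32 CPM in Het-Hit2, 7.59, 42.2, 3.11 and 6.09 CPM in Het-DMSO, and 7.31, 5.09, 3.53 and 2.73 CPM in Wt-DMSO. The highest library was 411 and the next 410, the 2 libraries with the highest sums of oligodendrocyte and midbrain monoamine markers and the lowest sums of Purkinje and granule markers given above. The part of those cell types in the level of Phlda3 was not tested. Among the other 10 libraries Phlda3 did not exceed 7.59 CPM.

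Phlda3 had a fitted log2 change of -0.99 (SE 0.79, 95% interval -2.72 to 0.74, adjusted p 0.898 by edgeR) against Het-DMSO, and 0.66 (SE 0.72) without libraries 409 and 411, so that its sign depended on them. Without library 410 as well it was -0.12 (SE 0.52). Against Wt-DMSO it was 0.67 (SE 0.79, adjusted p 1.00 by edgeR), and -0.13 without library 410. No direction can be given for this gene.

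Trp53inp1 (ENSMUSG00000028211) encodes a stress protein that takes part in p53-dependent cell death and in autophagy. It stood at 18.9, 22.2, 17.7 and 29.1 CPM in Het-Hit2, 5.22, 16.1, 16.8 and 21.4 CPM in Het-DMSO, and 18.6, 18.4, 20.6 and 29.0 CPM in Wt-DMSO. All 4 treated mice lay above the median of Het-DMSO, but library 429 of that group was higher than libraries 410 and 422. Library 430, the highest for Cdkn1a, was also the highest here, at almost the same level as wild-type library 431.

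Trp53inp1 had a fitted log2 change of 0.57 (SE 0.35, 95% interval -0.18 to 1.32, adjusted p 0.898 by edgeR; permutation p 0.143, exact and two-sided) against Het-DMSO. It was 0.20 (SE 0.23) without libraries 409 and 411, and 0.02 (SE 0.34) against Wt-DMSO. The low value of library 409 went with its low share of mitochondrial transcripts, and the part of RNA quality in it was not tested.

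Sesn1 (ENSMUSG00000038332) encodes sestrin 1, which lowers oxidative stress and the activity of the growth kinase complex mTORC1. It stood at 60.2, 86.1, 81.3 and 78.5 CPM in Het-Hit2, 76.9, 37.1, 83.2 and 79.8 CPM in Het-DMSO, and 76.0, 91.4, 96.1 and 92.7 CPM in Wt-DMSO. Libraries 411 and 410 were the lowest of all. Sesn1 differed by 0.14 log2 units (SE 0.22) against Het-DMSO, -0.09 (SE 0.13) without libraries 409 and 411, and -0.22 (SE 0.22) against Wt-DMSO. Without library 410 the value against Wt-DMSO was -0.13 (SE 0.24), and without libraries 425 and 426 it was -0.14 (SE 0.30). Each of the 4 treated mice lay below the median of Wt-DMSO, as did each Het-DMSO mouse, with an exact two-sided permutation p of 0.143 for Het-Hit2 and 0.114 for Het-DMSO.

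Zmat3 (ENSMUSG00000027663), a zinc finger protein that binds RNA and acts on splicing and on transcript stability, had the most reads of all members. It stood at 129, 114, 122 and 118 CPM in Het-Hit2, 162, 199, 113 and 118 CPM in Het-DMSO, and 134, 121, 120 and 117 CPM in Wt-DMSO. Libraries 411 and 409 were above all others, and the remaining 10 lay between 113 and 134 CPM. Zmat3 differed by -0.29 log2 units (SE 0.16, adjusted p 0.898 by edgeR) against Het-DMSO, 0.06 (SE 0.07) without libraries 409 and 411, and -0.03 (SE 0.16) against Wt-DMSO.

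**Figure D2:**
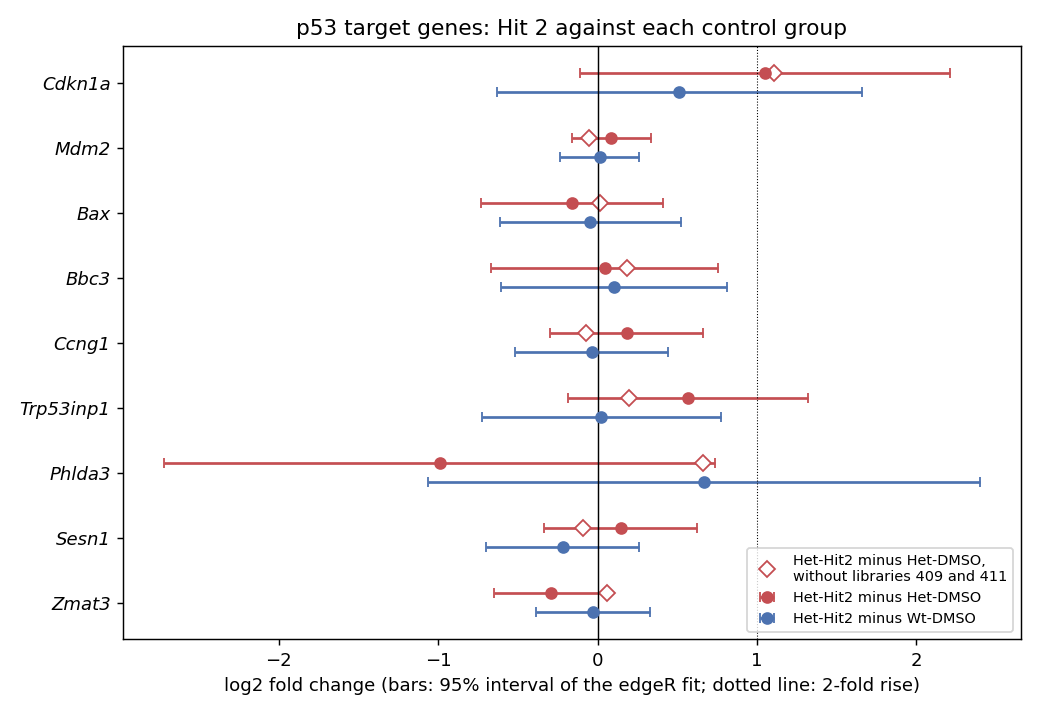
Fitted log2 change (horizontal axis) of the 9 tested p53 targets (vertical axis) in Het-Hit2 against Het-DMSO (red) and against Wt-DMSO (blue), with 95% intervals; open diamonds leave out libraries 409 and 411. Every interval includes 0, and the diamonds lie on the other side of 0 from the red points for 6 genes (Mdm2, Ccng1, Bax, Phlda3, Sesn1 and Zmat3) and closer to 0 on the same side for Trp53inp1.

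The intervals show which sizes of change these data allow. Against Het-DMSO the upper end of the 95% interval lay under a 2-fold rise for 7 of the 9 tested members, against 77.2% of all genes tested. The exceptions were Cdkn1a, whose interval reached 4.63-fold, and Trp53inp1, which reached 2.50-fold. Against Wt-DMSO 7 of the 9 lay under a 2-fold rise as well, against 78.7% of all genes, and the exceptions were Cdkn1a (3.16-fold) and Phlda3 (5.27-fold). For Mdm2 and Zmat3 the upper ends against Het-DMSO were 1.26-fold and 1.04-fold. Which members lay under a 2-fold rise against Het-DMSO depended on single libraries. Without libraries 409 and 411 the upper end was 4.79-fold for Phlda3 and 1.65-fold for Trp53inp1, and it was 3.18-fold for Phlda3 without 411 alone. Without library 430 that of Cdkn1a was 1.67-fold. When single libraries were left out the count was 6 to 8 of 9 in both comparisons.

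Compared per kilobase of exon (exon lengths from GENCODE M21), the members spanned a wide range of levels, which is given here for the wild-type group as mean and SD of 4 libraries. Sesn1 was the highest at 22.4 ± 2.24 CPM per kilobase (SD, n = 4). Zmat3 (10.8 ± 0.632), Mdm2 (9.85 ± 0.464), Ccng1 (9.06 ± 0.580) and Bax (8.22 ± 0.938) followed, and neighbours in this order lay within the sum of their SDs. Bbc3 (5.25 ± 1.11), Cdkn1a (4.46 ± 1.64), Trp53inp1 (3.34 ± 0.774) and Phlda3 (2.99 ± 1.30) formed a lower range in which the spreads overlapped. Eda2r was the lowest at 0.0478 ± 0.0157 CPM per kilobase. In Het-Hit2 the level of Cdkn1a per kilobase was 6.36 ± 6.45, an SD larger than its mean.

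The third comparison is that of the vehicle-treated groups, Het-DMSO against Wt-DMSO, which shares its libraries with the other 2. These groups differed in the knock-in allele and also in Xist, which only 2 of the 4 wild-type libraries, 425 and 426, had at a high level, so the comparison is not of the allele alone. The same holds for Het-Hit2 against Wt-DMSO. No member passed the threshold by edgeR, where 0.00516% of all genes did, none had an unadjusted p under 0.05 (7.11% of all genes), and none had groups that did not overlap (4.39%). DESeq2 and limma also called 0 members, beside 43 and 98 of all 19378 genes. Among the 22 alternative fits Phlda3 had an unadjusted p under 0.05 in 5 (0.0235 to 0.0450) and Zmat3 in 1 (0.0366, without library 420). The genes under 0.05 in those fits were 1796 of 19378 with DESeq2, 1862 of 35878 without the filter and 1314 of 19742 without library 410. They were 2865 of 19895 without library 420 and 2760 of 19647 without library 429. The median of the 9 log2 changes was -0.07 beside 0.05 over all genes. Cdkn1a had a log2 change of -0.54 (SE 0.53, permutation p 0.0571, exact and two-sided), with all 4 Het-DMSO mice below the median of Wt-DMSO. Trp53inp1 had -0.54 (SE 0.35), Sesn1 -0.36 (SE 0.22), and Phlda3 1.66 (SE 0.80, adjusted p 0.616 by edgeR). Without libraries 409 and 411 the values were -0.18 (SE 0.23) for Trp53inp1, -0.14 (SE 0.14) for Sesn1 and -0.02 for Phlda3. Without library 431 that of Cdkn1a was -0.28 (SE 0.57). Without libraries 425 and 426, 0 members passed as well, and Cdkn1a had -0.69 (SE 0.69). For the remaining 5 tested members the value lay between -0.22 for Ccng1 and 0.27 for Zmat3.

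**Figure D3:**
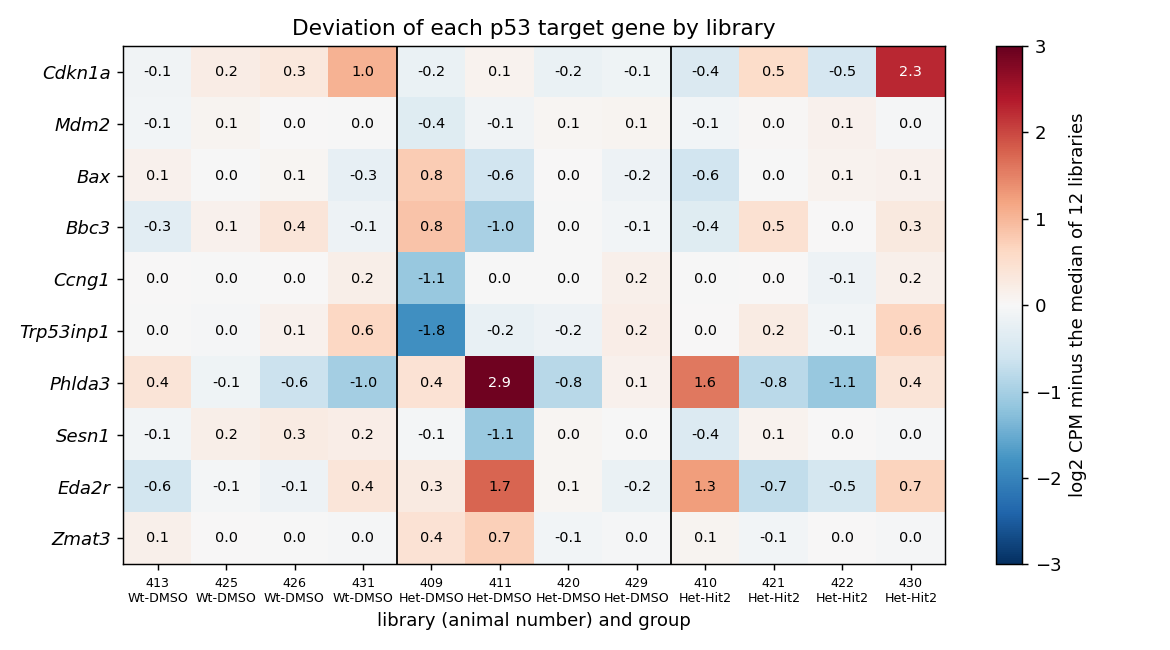
Deviation of each p53 target gene (rows) from its median over the 12 libraries, in log2 CPM, for each library (columns, by group); red is above and blue below the median, and each cell prints its value. The 5 largest departures are those of Phlda3 in 411 (2.91) and 410 (1.59), Cdkn1a in 430 (2.26), Trp53inp1 in 409 (-1.83) and Eda2r in 411 (1.74), and no column has all members on 1 side.

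The deviations show whether the members moved as a set in any one mouse. In library 430, 2 of the 9 tested members, Cdkn1a and Trp53inp1, lay more than 0.5 log2 units above their median and 0 lay below by that much, while 8.95% of all genes tested lay above by that much and 4.51% below. In wild-type library 431 the same 2 genes lay above and Phlda3 below, beside 5.74% and 7.45% of all genes. The other treated mice had no such pair: Cdkn1a was above and Phlda3 below in library 421 (2.94% and 4.91% of all genes), both were below in library 422 (8.30% of all genes below), and Phlda3 was above and Bax below in library 410 (15.2% and 7.35%). Library 409 had 2 members above and 2 below, beside 23.8% and 32.6% of all genes. Library 411 had 2 above and 3 below, beside 24.4% and 23.4% of all genes.

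Over the 12 libraries the level of Cdkn1a on the log2 scale went with that of the other tested members only weakly. Pearson's r was 0.52 for Trp53inp1, 0.35 for Ccng1 and 0.20 or below for the rest, down to -0.24 for Zmat3. Without libraries 430 and 431, the farthest from the median of Cdkn1a, it was 0.27 for Trp53inp1 and 0.23 for Ccng1. Of 16594 genes outside the set with a mean of at least 1 CPM, 21 had an r above 0.8 with Cdkn1a. The 5 most alike were Spdef (r 0.93), Zbtb16 (0.91), Map3k6 (0.91), Mertk (0.89) and Trim72 (0.88), with Spearman's rho from 0.64 to 0.74. These values describe 12 libraries that share 3 groups and differ in depth. Without libraries 430 and 431 their r was 0.49 to 0.62, so the likeness rested in large part on these 2 mice, 1 treated and 1 wild type.

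**Figure D4:**
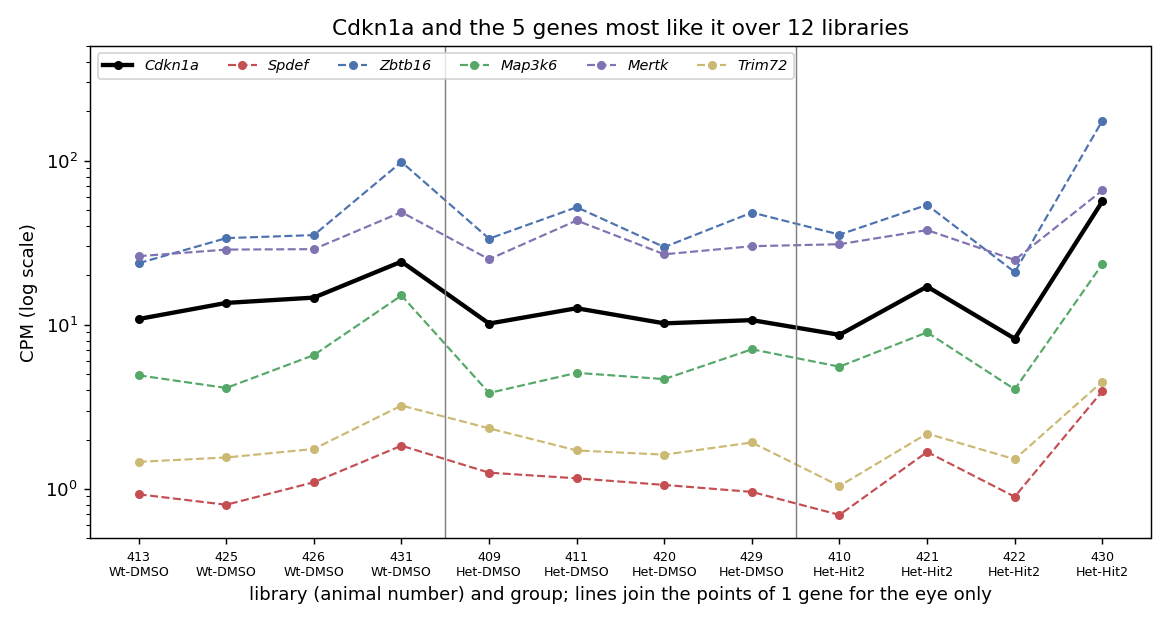
Level in CPM (vertical axis, log scale) of Cdkn1a (black) and of the 5 genes most like it (dashed) in each of the 12 libraries (horizontal axis, by group). All 6 genes are at their highest in Het-Hit2 library 430 (Cdkn1a 56.4 CPM, Zbtb16 175 CPM) and next in Wt-DMSO library 431 (Cdkn1a 24.3 CPM, Zbtb16 98.3 CPM).

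The gene of p53 itself, Trp53, was measured next, although p53 is regulated mainly at the level of the protein, which these data do not show. Trp53 stood at 18.5, 19.1, 18.6 and 18.6 CPM in Het-Hit2, at 20.0, 18.3, 18.3 and 16.3 CPM in Het-DMSO and at 17.0, 16.8, 16.5 and 15.98 CPM in Wt-DMSO. The log2 change was 0.04 (SE 0.10) against Het-DMSO and 0.11 (SE 0.08) without libraries 409 and 411. Against Wt-DMSO it was 0.17 (SE 0.10, adjusted p 1.00 by edgeR; permutation p 0.0286, exact and two-sided, the smallest that 4 against 4 libraries can give), with each treated mouse above each wild-type mouse, as was so in either direction for 6.32% of all genes. Mdm4, the partner of Mdm2, stood at 229 CPM in Het-Hit2, 206 CPM in Het-DMSO and 226 CPM in Wt-DMSO, with a log2 change of 0.15 (SE 0.13) against Het-DMSO and -0.030 without libraries 409 and 411.

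Of a list of 17 genes for p53, its family and its regulators, 16 were tested. Of these 0 passed the threshold in either direction against Het-DMSO, beside 0% of all genes, or against Wt-DMSO, beside 0.00516%. Their median log2 change was 0.03 against Het-DMSO (9 above 0, 7 below), beside -0.04 over all genes. Against Wt-DMSO it was 0.02 (9 above, 7 below), beside 0.02 over all genes. Without libraries 409 and 411, 6 lay above 0 and 10 below against Het-DMSO, with a median of -0.03 beside 0.01 over all genes. Atm, the kinase that signals DNA breaks to p53, stood at 60.2 CPM in Het-Hit2, 46.2 CPM in Het-DMSO and 65.1 CPM in Wt-DMSO, with a log2 change of 0.38 (SE 0.27) against Het-DMSO and -0.11 (SE 0.27) against Wt-DMSO. Its level was 21.5 CPM in library 409, 38.9 CPM in library 411 and 53.9 to 72.5 CPM in the other 10 libraries. The change against Het-DMSO rested on these 2 libraries and was -0.052 (SE 0.10) without them. Rpl11, a ribosomal protein that binds Mdm2, had -0.36 (SE 0.19) against Het-DMSO, 0.050 (SE 0.11) without the same libraries and 0.11 (SE 0.19) against Wt-DMSO. Chek2, a kinase activated by Atm, had 0.25 (SE 0.30) against Het-DMSO, 0.026 (SE 0.34) without them and -0.20 (SE 0.29) against Wt-DMSO. Rpl11 had 0.47 (SE 0.19, unadjusted p 0.0271 and adjusted p 0.616 by edgeR) in Het-DMSO against Wt-DMSO. In that comparison 7.11% of all genes had an unadjusted p under 0.05.

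A list of 30 further p53 targets had 28 genes tested. Of these 0 passed the threshold in each comparison, beside 0% of all genes against Het-DMSO and 0.00516% in both comparisons with Wt-DMSO. Against Het-DMSO 10 lay above 0 and 18 below, and the median was -0.09 beside -0.04 over all genes. Without libraries 409 and 411, 12 lay above 0 and 16 below against Het-DMSO, with a median of -0.02 beside 0.01 over all genes. Against Wt-DMSO 16 lay above 0 and 12 below, with a median of 0.03 beside 0.02 over all genes. Against Het-DMSO 1 of the 28 had an unadjusted p under 0.05, beside 1.55% of all genes. It was Gtse1, a microtubule-bound protein that moves p53 out of the nucleus (0.0381 by edgeR). Its level was 0.521, 0.593, 0.483 and 0.798 CPM in Het-Hit2 and 0.320, 0.454, 0.373 and 0.375 CPM in Het-DMSO, groups that did not overlap, as was so for 1.03% of all genes. In Wt-DMSO it was 0.535, 0.542, 0.471 and 0.582 CPM, which overlapped with Het-Hit2. These levels rested on 9 to 21 reads per library in Het-Hit2, 6 to 13 in Het-DMSO and 13 to 23 in Wt-DMSO. Such counts are close to the detection limit. The fitted log2 change of Gtse1 was 0.65 (SE 0.28, adjusted p 0.898 by edgeR; permutation p 0.0286, exact and two-sided) against Het-DMSO and 0.16 (SE 0.27) against Wt-DMSO. Gtse1 was also one of the targets with paired half-sites near its start, printed above.

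The other targets named from that list had negative log2 changes against Het-DMSO, and none passed the test. Plk3, a stress kinase, had -0.48 (SE 0.27) against Het-DMSO, -0.21 (SE 0.31) without libraries 409 and 411, and 0.16 (SE 0.27) against Wt-DMSO. Ptp4a3, a phosphatase, had -0.31 (SE 0.18), 0.021 (SE 0.11) and 0.06 (SE 0.18) in the same order. In Het-DMSO every mouse had more Plk3 than every Wt-DMSO mouse (log2 change 0.64, SE 0.27, unadjusted p 0.0368 and adjusted p 0.616 by edgeR). In that comparison 4.39% of all genes had groups that did not overlap and 7.11% an unadjusted p under 0.05. Ephx1, an epoxide hydrolase, stood at 23.99 CPM in Het-Hit2, 26.9 CPM in Het-DMSO and 29.1 CPM in Wt-DMSO, with a log2 change of -0.17 (SE 0.21) against Het-DMSO. Every treated mouse lay below every wild-type mouse (log2 change -0.28, SE 0.21, adjusted p 1.00 by edgeR), and 6.32% of all genes likewise had groups that did not overlap. Sesn2, the relative of Sesn1, had -0.15 (SE 0.14) against Het-DMSO, 0.057 (SE 0.11) without libraries 409 and 411, and -0.21 (SE 0.14) against Wt-DMSO. Rps27l, whose site is printed above, had -0.20 (SE 0.24) against Het-DMSO, -0.31 (SE 0.18) without these libraries and -0.23 (SE 0.24) against Wt-DMSO.

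Downstream of p21, p53 lowers genes of the cell cycle. Of 12 such genes only 5 passed the filter on low counts. Of the 5, 0 passed the threshold, beside 0% of all genes against Het-DMSO and 0.00516% against Wt-DMSO. Against Het-DMSO 4 lay above 0 and 1 below, with a median of 0.12 beside -0.04 over all genes. Against Wt-DMSO 1 lay above and 4 below, with a median of -0.04 beside 0.02. Mki67, the proliferation marker, stood at 0.760 CPM in Het-Hit2, 0.394 CPM in Het-DMSO and 0.769 CPM in Wt-DMSO, with a log2 change of 0.98 (SE 0.50, adjusted p 0.898 by edgeR) against Het-DMSO and 0.58 (SE 0.52) without libraries 409 and 411. Its level in library 430 was 1.41 CPM, the highest of the 12 libraries, beside the highest level of Cdkn1a. Mki67 rested on 9 to 30 reads per library in Het-Hit2, 5 to 12 in Het-DMSO and 19 to 28 in Wt-DMSO. Such counts are close to the detection limit. Cdc20, which activates the ubiquitin ligase that ends mitosis, stood at 1.45 CPM in Het-Hit2, 1.32 CPM in Het-DMSO and 2.49 CPM in Wt-DMSO, and each treated mouse lay below each wild-type mouse (log2 change -0.78, SE 0.44, adjusted p 1.00 by edgeR), a separation shared by 6.32% of all genes. Against Het-DMSO Cdc20 had 0.12 (SE 0.44), and -0.13 (SE 0.32) without libraries 409 and 411. Plk1, Ccna2 and Ccnb2 had log2 changes of 0.09 (SE 0.32), 0.47 (SE 0.42) and -0.12 (SE 0.28) against Het-DMSO, and 0.044, 0.46 and -0.25 without libraries 409 and 411. Against Wt-DMSO they had -0.04 (SE 0.32), 0.34 (SE 0.41) and -0.33 (SE 0.28).

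All 16 genes of a list for DNA damage sensing and repair were tested, and 0 passed the threshold in either direction. Among all genes 0% passed it against Het-DMSO and 0.00516% against Wt-DMSO. The median log2 change of the 16 was 0.03 against Het-DMSO beside -0.04 over all genes, with 8 above 0 and 8 below. Without libraries 409 and 411 it was -0.03 beside 0.01, with 5 above and 11 below. Against Wt-DMSO it was 0.01 beside 0.02 over all genes, with 9 above and 7 below. Brca2, which acts in the repair of double-strand breaks, had a log2 change of 0.44 (SE 0.34) against Het-DMSO and 0.02 (SE 0.34) against Wt-DMSO. Nbn and Rad50, subunits of the complex that recognises broken ends, had 0.34 (SE 0.31) and 0.26 (SE 0.23) against Het-DMSO, and 0.01 (SE 0.31) and -0.01 (SE 0.22) against Wt-DMSO. Without libraries 409 and 411 the values against Het-DMSO were -0.0092 for Brca2, -0.087 for Nbn and 0.021 for Rad50. Nbn stood at 5.00 CPM in library 409 and at 13.7 to 19.4 CPM in the other 11 libraries. Parp1, which marks strand breaks, stood at 125 CPM in library 409 and at 55.9 to 87.2 CPM elsewhere, with a log2 change of -0.12 (SE 0.20) against Het-DMSO and -0.036 without libraries 409 and 411.

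**Figure D5:**
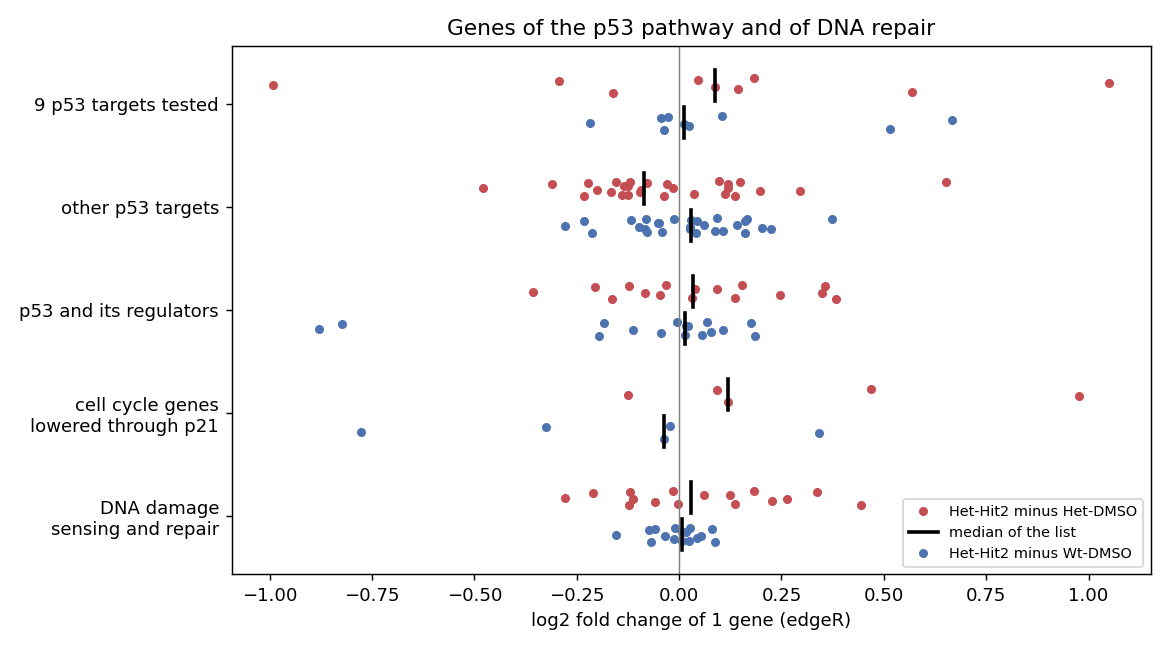
Fitted log2 change of single genes (horizontal axis) in 5 lists (vertical axis) for Het-Hit2 against Het-DMSO (red) and against Wt-DMSO (blue); each point is 1 gene and the black bar is the median of the list. The medians lie between -0.09 and 0.12. No point passed the threshold of the test, which 0% of all genes passed against Het-DMSO and 0.00516% against Wt-DMSO.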

How the data were processed

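Cerebellar RNA of 12 mice was sequenced as rRNA-depleted, directional, paired-end libraries of 100 bases, per the labels' protocols. The deposited values are raw read counts per gene in the layout of STAR, per the file headers, and the authors normalized nothing in them. The submitters' processing notes name FastQC 0.11.9, STAR 2.7.10a and the builds GRCm39 and mm39; the annotation release is not given in the sources used here. Counts of the reverse strand (column 4) were used, since the opposite strand held 5.21% to 6.47% of gene reads. Library sizes and tests left out reads outside genes (44.7% to 54.6%), with several alignments (4.08% to 7.01%), without one (3.70% to 6.53%) or ambiguous between genes (0.761% to 1.33%).

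Symbols and exon lengths came from GENCODE M21 (GRCm38) by identifier, with 55141 of 55401 matched. That build differs from the authors' own, so no gene coordinates were taken from it. Promoter sequences are from RefSeq on GRCm38.p6.

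All 12 libraries entered 1 edgeR 4.0.16 quasi-likelihood fit in R 4.3.3 (filterByExpr, TMM, 1 coefficient per group), with Benjamini-Hochberg adjustment over all 19378 genes and a threshold of 0.05. CPM are on TMM-scaled library sizes. Exact two-sided permutation tests used log2 CPM (prior count 2) over the 70 assignments of 8 libraries and cannot go below 0.0286. The script was tested on simulated data. Each library is 1 mouse. No animal number occurs in more than 1 group, so nothing was paired. Of the sample-sheet numbers, 4 recur, and no sequencing batch is named in the labels.

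The members and lists were chosen with earlier results of these data known. All members, Trp53, Mdm4 and up to 4 genes per list and comparison with the smallest unadjusted p were open to naming, with the 5 genes whose pattern over the libraries was most like that of Cdkn1a. The latter were taken among tested genes outside the members with a mean of at least 1 CPM. Alternatives were DESeq2 1.42.0, RLE factors, no filter, robust quasi-likelihood, fits of only the compared groups, unstranded counts, limma 3.58.1 with library quality weights, leaving out libraries 409 and 411, leaving out 425 and 426, and leaving out each library in turn. Leaving out 409, 410 and 411 together, and leaving out 409 and 411 for the other gene lists, were added after the data were seen.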

Additional observations from a re-analysis of the deposited data

Results flagged for a closer look

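In 3 places 1 of the 4 mice of a group lay far from the other 3, with a ratio of the gap to the whole range, taken on the log2 CPM scale, above Dixon's 95% critical value. Ccng1 (cyclin G1) stood at 34.9 CPM in Wt-DMSO library 431, above 30.5 to 31.1 CPM in the other wild-type mice. Ccng1 stood at 14.0 CPM in Het-DMSO library 409, below 30.4 to 34.5 CPM in the rest of that group. Sesn1 (sestrin 1) stood at 37.1 CPM in Het-DMSO library 411, below 76.9 to 83.2 CPM in the rest of that group. The ratios on log2 CPM were 0.862, 0.862 and 0.902. On linear CPM the ratio was 0.870 for Ccng1 in 431, 0.803 for Ccng1 in 409, under the critical value, and 0.862 for Sesn1 in 411, and library 411 also passed it for Phlda3 (0.886) and Eda2r (0.869), so which values stand out depends on the scale. Chance flags about 1 in 20 groups, so 1.5 of the 30 groups examined (10 genes in 3 groups) would be expected. The part of the low mitochondrial share of library 409 and of the low neuronal marker sums of library 411 in these values was not tested.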

How the results depend on the processing

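No p53 target passed the threshold in any of the 21 alternatives for Het-Hit2 against Het-DMSO or the 22 for each comparison with Wt-DMSO. Adjusted p over the 9 members tested as fitted stayed at 0.341 or above. With 4 mice a group, the 95% intervals of Cdkn1a and Trp53inp1 against Het-DMSO (without 409 and 411, of Cdkn1a and Phlda3), and of Cdkn1a and Phlda3 against Wt-DMSO, extended past a 2-fold rise, so rises of that size were within what these data allow. Eda2r, at 3 to 23 reads per library, did not pass the filter on low counts as fitted. It was tested in some alternatives, such as the fit without libraries 409 and 411. Several log2 changes turned sign with the libraries left out or weighted; the cause was not tested.

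The number of all genes called for Het-Hit2 against Wt-DMSO, 1 as fitted, was 24 with DESeq2, 4 without a filter, 2 with unstranded counts, 54 with only the 2 groups compared, 221 with library quality weights (limma), 90 without libraries 409 and 411, 0 without 425 and 426, 109 without 409, 410 and 411, and 0 to 14 when single libraries were left out (14 without 411, 5 without 409, 2 without 429, 1 without 420 and 0 without any other). For Het-DMSO against Wt-DMSO, also 1, it was 43 with DESeq2, 0 with only the 2 groups, 98 with quality weights, 18 without 409 and 411, 0 without 425 and 426, 84 without 409, 410 and 411, and 0 to 9 with single libraries left out (9 without 411, 4 without 409, 0 without 429). For Het-Hit2 against Het-DMSO it stayed 0. The median over 9 members for that comparison, 0.087 as fitted, was 0.024 with quality weights, 0.031 without 409, 410 and 411, and 0.041 to 0.16 with single libraries left out. The median over 9 members for Het-DMSO against Wt-DMSO was -0.032 without 425 and 426 and -0.21 to -0.047 with single libraries left out, and for Het-Hit2 against Wt-DMSO -0.10 to 0.038.

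Signs turned as follows (log2 changes). For Het-Hit2 against Het-DMSO, quality weights gave -0.023 for Mdm2, 0.095 for Bax, -0.062 for Ccng1 and 0.00044 for Zmat3. Leaving out 409 and 411 gave -0.054 for Mdm2, 0.013 for Bax, -0.069 for Ccng1, 0.66 for Phlda3, -0.092 for Sesn1 and 0.059 for Zmat3, and in the other lists, where only this alternative was run, -0.052 for Atm, -0.0092 for Brca2, -0.13 for Cdc20, -0.030 for Mdm4, -0.087 for Nbn, 0.021 for Ptp4a3, 0.050 for Rpl11 and 0.057 for Sesn2. Leaving out 410 too gave -0.016 for Mdm2, 0.15 for Bax, -0.064 for Ccng1 and 0.031 for Zmat3. With single libraries left out the ranges were -0.37 to 0.16 for Bax, -0.038 to 0.31 for Ccng1, -0.22 to 0.43 for Bbc3, -1.77 to 0.35 for Phlda3 and -0.090 to 0.24 for Sesn1.

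For Het-Hit2 against Wt-DMSO, no filter gave -0.0041 for Mdm2, quality weights 0.0052 for Bax and -0.18 for Phlda3, leaving out 425 and 426 -0.11 for Trp53inp1, and leaving out 409, 410 and 411 0.089 for Bax and -0.13 for Phlda3. With single libraries left out the ranges were -0.13 to 0.082 for Bax, -0.13 to 0.96 for Phlda3, -0.033 to 0.040 for Mdm2, -0.15 to 0.19 for Trp53inp1, -0.067 to 0.013 for Zmat3, -0.024 to 0.24 for Bbc3, -0.10 to 0.012 for Ccng1 and -0.49 to 0.79 for Cdkn1a.

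For Het-DMSO against Wt-DMSO, quality weights gave 0.045 for Mdm2, -0.089 for Bax, -0.16 for Bbc3, 0.040 for Ccng1 and -0.057 for Zmat3. Leaving out 409 and 411 gave 0.054 for Mdm2, -0.069 for Bax, -0.094 for Bbc3, 0.020 for Ccng1, -0.019 for Phlda3 and -0.099 for Zmat3. Leaving out 410 too gave 0.063 for Mdm2, -0.062 for Bax, -0.086 for Bbc3, 0.029 for Ccng1, -0.0087 for Phlda3 and -0.090 for Zmat3. With single libraries left out the ranges were -0.13 to 0.0058 for Mdm2, -0.21 to 0.31 for Bax and -0.33 to 0.31 for Bbc3.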

Other observations

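The other members of the p53 family differed between mice more than Trp53 did. Trp73 encodes p73, which in the adult brain is known from the choroid plexus, the ependyma and certain neurons. It stood at 13.8, 23.6, 22.0 and 20.0 CPM in Wt-DMSO libraries 413, 425, 426 and 431. It was 15.6, 0.353, 19.5 and 12.9 CPM in Het-DMSO libraries 409, 411, 420 and 429, and 6.02, 15.8, 8.78 and 12.6 CPM in Het-Hit2 libraries 410, 421, 422 and 430. The lowest library, 411, was also the lowest for the summed Purkinje and granule markers, and the next lowest, 410, was the next lowest for both. The summed level of 10 choroid plexus markers was 508 CPM in 411 and 1664 CPM in 410, where Trp73 was lowest. It was 1749 CPM in 425 and 114 CPM in 426, where Trp73 was highest, and ranged from 74.8 to 2987 CPM over the 12 libraries. The part of cell makeup in the level of Trp73 was not tested. The log2 change of Trp73 was -0.16 (SE 0.69) for Het-Hit2 against Het-DMSO, -0.58 (SE 0.34) without libraries 409 and 411, and -0.88 (SE 0.69, adjusted p 1.00 by edgeR) against Wt-DMSO. Trp63, which encodes p63, a factor of stratified epithelia, stood between 0.124 and 1.84 CPM in all 12 libraries, with -0.82 (SE 0.58) against Wt-DMSO.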
